A study of Arabidopsis thaliana with 2 samples.

Results

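The transcripts described here are the 137 named genes with the brightest and most nearly equal signals on 2 microarrays of Arabidopsis rosette leaves, out of 3602 genes that the array names one at a time. Genes were ranked by the lower of their signals on the 2 arrays, taking the best probe set of each gene, and the 150 highest were kept. Of these, 141 had signals within 1.5-fold of each other, where 86.2% of the 1937 named genes whose signals exceeded the floor in NOT and WDC alike did so. A further 4 of the 141 (KIN2, COR47, COR15B and AT3G09440) were left out as the selection asked, which gave 137. The members were chosen by the height of their signals and the size of their ratio, so neither is a result about them, and nothing is read from their being bright or steady.

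The study asked how nitric oxide acts in plants. Each array was hybridised with biotin-labelled RNA from wild-type Arabidopsis thaliana plants, ecotype Col-0, of the same seed stock, with no transgene or mutation named. Plants of both groups stood on compost at 22 °C in 24 h light, after stratification for 1 week at 4 °C, and were taken at growth stage 3.5. The groups carry the codes NOT and WDC, which the labels do not explain and which tie neither array to the control that they mention, so ratios are given as NOT over WDC and neither array is called treated. A label on the NOT sample states pools of 4 experiments with about 8 leaves in each, and the design text gives 8 pooled plants. The tissue label names rosette leaves, whereas the extraction label speaks of seedlings. With 1 array per group, no difference below has a replicate check and no test was made. Values are signal intensities on the authors' scale, on which the trimmed mean of each array (2% removed from either tail) was 100.1.

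Leaf cells devote much of their messenger RNA to photosynthesis. In the thylakoid membranes of the chloroplast, antenna proteins pass light energy to photosystem II and photosystem I, electrons flow between them through the cytochrome b6f complex, and the Calvin cycle in the stroma uses the products to fix carbon dioxide. Photorespiration recovers the carbon lost when Rubisco takes up oxygen. Other transcripts that growing leaves hold in quantity include those for the cytosolic ribosome, made of a large and a small subunit. Those for mitochondrial respiration and for the proton pump that acidifies the vacuole are further examples.

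The name "most abundant" holds only among genes that could be named. In all, 557 non-control probe sets were at or above 448.2 on both arrays, the lower signal of the last gene ranked, and 166 of them (29.8%) were annotated to 1 gene in the table used here. Another 10 were annotated to several genes and 381 to none in that table. Among the 150 brightest probe sets, 31 named 1 gene. The bright probe sets with no name had much the same range of ratios, since 359 of 381 (94.2%) were within 1.5-fold, beside 156 of 166 (94.0%) with a name. Signals of different probe sets depend on their probes, so a rank here is the order of the selection and does not order transcripts by copy number.

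A role was given to 122 of the 137 genes. For 44 it came from the symbol or a synonym in the RefSeq gene table, and for 78 from general knowledge of the locus, which the files do not state. No role was given to 15. Genes for plastid proteins numbered 26, in 4 classes, and genes for cytosolic ribosomal proteins and translation factors numbered 29. There were 12 genes for cell wall, lipid transfer and defence proteins, 10 for stress proteins and signalling, 8 each for mitochondrial respiration and the vacuolar proton pump, 7 for protein degradation and its inhibitors, and 4 each for the secretory pathway, other metabolism, and cytoskeleton, chromatin and folding. The last 10 belong to other protein families.

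Signals of the members ran from 458.8 to 4248.5 on the NOT array and from 448.2 to 3652.3 on the WDC array. The lowest of them was 35.9 times the floor of 12.5. Among the members, 67 of 137 lay within 1.1-fold, and 30.8% of all named genes above the floor did. In 127 of 137 the brighter signal was at most 25% above the dimmer (within 25%), beside 63.0% of all. The median distance from a ratio of 1 was 0.14 on the log2 scale, or 1.1-fold, and the standard deviation of log2 ratios across the 137 genes was 0.18. These figures are narrowed by the 1.5-fold limit. Over the whole list of 150, the median distance was 0.15 and the standard deviation 0.28.

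**Figure D1:**
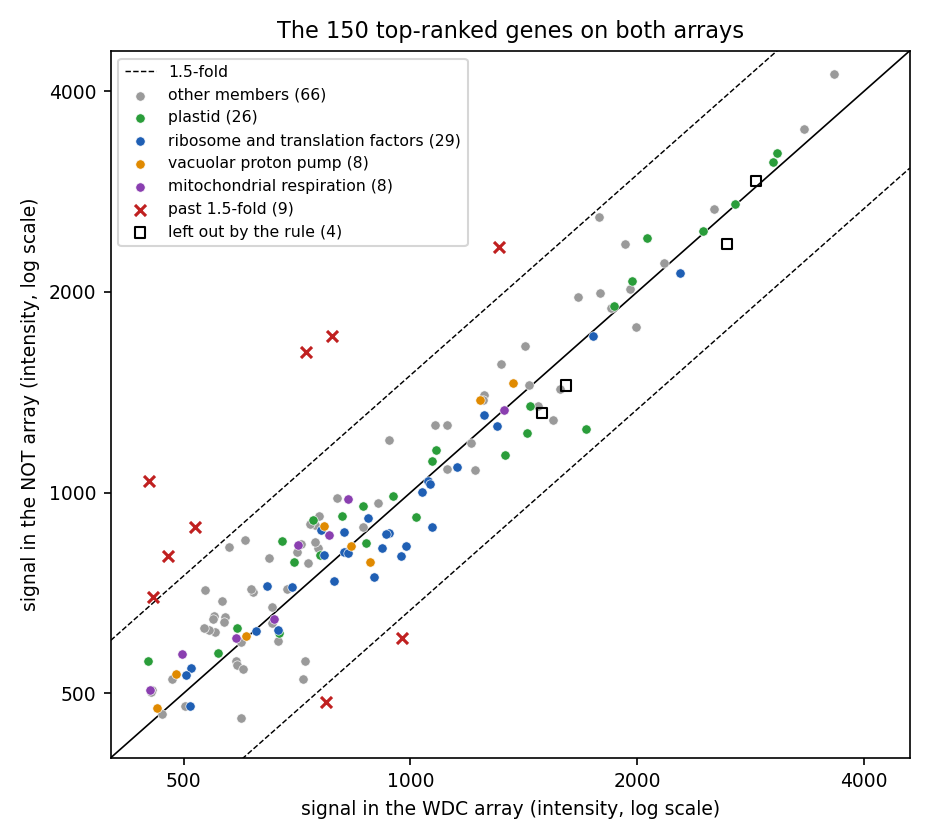
Signal of the 150 top-ranked genes on the NOT array (vertical, intensity, log scale) against the WDC array (horizontal, intensity, log scale), 1 point per gene, coloured by role. The solid line marks equal signals and the dashed lines 1.5-fold; 137 members lie between the dashed lines, 9 genes lie past them, and open squares are the 4 genes left out.

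Of the 137 genes, 89 had the higher signal on the NOT array and 48 on the WDC array, where 47.7% of all named genes above the floor were higher on NOT. The median log2 ratio was 0.06, with quartiles of -0.04 and 0.20, beside a median of -0.02 over all named genes above the floor. This direction depends on how the arrays are scaled. The number higher on NOT was 115 with the arrays scaled to equal medians, 120 with scaling to the spiked-in bacterial controls, 76 after quantile normalization and 67 after loess. Median scaling moved every log2 ratio up by 0.11 and the spiked-in controls by 0.14. The share of all named genes above the floor that were higher on NOT moved too, to 59.7%, 63.3%, 53.8% and 47.7% in the same order. A small ratio of a single gene therefore has no settled direction. Counts by class below are on the deposited scale, beside the 47.7% of all named genes. Their values under the other scalings follow where they moved. As deposited, the share higher on NOT was 65.0% among the 137 members and 42.4% in ranks 1001 to 1937. A class with a share near 65.0% is thus close to the members as a whole.

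Photosystem and light-harvesting genes numbered 8, of which 7 had the higher signal on NOT, with log2 ratios from -0.23 to 0.14 and a median of 0.05. After quantile normalization 4 of 8 were higher on NOT and after loess 2 of 8, with medians of -0.00 and -0.02, and the median was 0.16 with median scaling and 0.19 with the spiked-in controls. Relative to the other members the class median was -0.02 as deposited, -0.04 after quantile normalization and -0.02 after loess. Median and spiked-in scaling shift all ratios alike and cannot change this value. PSBW, a small subunit of photosystem II, gave 3234.0 on NOT and 3064.7 on WDC, a log2 ratio of 0.08. LHCB4.1, a minor antenna protein that links the outer antenna to photosystem II, gave 3135.3 and 3028.1 (0.05). For PSAE-1, on the stromal side of photosystem I where ferredoxin docks, the signals were 2710.0 and 2698.9 (0.01). These 3 pairs of signals differed by less than 1.1-fold.

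PSBY, whose product is cut into small subunits of photosystem II, had signals of 2076.4 on NOT and 1965.3 on WDC (0.08). LHB1B2, a major antenna protein, had 1904.7 and 1865.6 (0.03). The photosystem II protein AT1G51400 followed with 573.7 and 555.1 (0.05). All these were slightly brighter on NOT. PSB27, a factor for the assembly and repair of photosystem II, stood at 954.4 and 865.6 (0.14), the highest ratio of the 8. The one gene of this class with the higher signal on WDC was PSAN, a lumenal subunit of photosystem I, at 1138.9 and 1334.8.

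Behind the photosystems, 5 genes for thylakoid and plastid redox proteins spread more widely, from -0.21 to 0.32. AT4G01150, which bends the margins of grana, gave 2413.3 on NOT and 2061.1 on WDC (0.23). AT2G26500, a small subunit of the cytochrome b6f complex, gave 1230.0 and 1427.1 (-0.21). The catalytic subunit of ferredoxin-thioredoxin reductase, AT2G04700, which passes electrons from ferredoxin to thioredoxins, gave 1114.6 and 1067.0 (0.06). The rubredoxin-like protein AT1G54500, a redox protein of the plastid, had 910.4 and 743.2 (0.29). TRXF2, an f-type thioredoxin that activates Calvin cycle enzymes in the light, was the last gene of the ranking, at 559.5 and 448.2 (0.32). Of these 5 genes, 4 were higher on NOT (3 after loess), and only AT2G04700 was within 1.1-fold. The class median of 0.23 ran from 0.13 after quantile normalization to 0.37 with the spiked-in controls.

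Carbon fixation and photorespiration were represented by 6 genes, 5 of them within 1.1-fold, with a median of 0.07 that ran from 0.00 after quantile normalization to 0.22 with the spiked-in controls. RCA, which activates Rubisco, gave 2469.2 on NOT and 2441.5 on WDC (0.02). PRK, the kinase that regenerates the carbon dioxide acceptor, gave 1157.5 and 1079.9 (0.10). HPR, the peroxisomal hydroxypyruvate reductase of photorespiration, gave 989.0 and 949.2 (0.06). The signals of each of these 3 genes were nearly level. AT3G04550, a factor for Rubisco assembly, had 805.9 and 758.6 (0.09), and AT1G56190, a plastid phosphoglycerate kinase, had 787.6 and 701.0 (0.17). The T protein of glycine decarboxylase, AT1G11860, had 615.3 and 669.4 (-0.12), the only one of the 6 with the higher signal on WDC.

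A mixed class of 7 genes covers other plastid functions and includes the member with the lowest ratio. FIB, a fibrillin that coats plastoglobules, gave 1247.3 on NOT and 1709.7 on WDC, a log2 ratio of -0.45. At the other end was OTC, ornithine carbamoyltransferase of arginine synthesis, with 847.2 and 675.6 (0.33). Between them lay the plastid RNA-binding protein AT2G37220 at 1349.1 and 1440.9 (-0.10). The geranylgeranyl reductase AT1G74470, which makes the phytol tail of chlorophyll, stood at 920.5 and 1015.6 (-0.14). FTSZ2-1, of the plastid division ring, gave 839.2 and 874.1 (-0.06). AT1G24360, a reductase of plastid fatty acid synthesis, gave 626.8 and 588.6 (0.09). Of these 7 genes, 3 were higher on NOT and 4 on WDC as deposited, and 6 were higher on NOT with the spiked-in controls. The 26 plastid genes of the 4 classes together had a median of 0.06, with 15 within 1.1-fold, which is near the median of the 137 members as a whole.

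Cytosolic ribosomal protein genes formed the largest class, with 24 members, and 18 of them had the higher signal on WDC, where 52.1% of all named genes above the floor did. Their median log2 ratio was -0.04, within a range of -0.27 to 0.21, and the median of all named genes above the floor was -0.02. The ribosomal median was 0.13 below the median of the other 113 members. It was 0.15 below it after quantile normalization and 0.14 below it after loess. Median and spiked-in scaling shift all ratios alike, so they cannot change this difference. The count itself moved with the scaling. The number of ribosomal genes higher on NOT was 6 as deposited, 18 with median scaling, 19 with the spiked-in controls, 5 with quantile normalization and 4 with loess. All 24 were within 25%, and 17 were within 1.1-fold.

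**Figure D2:**
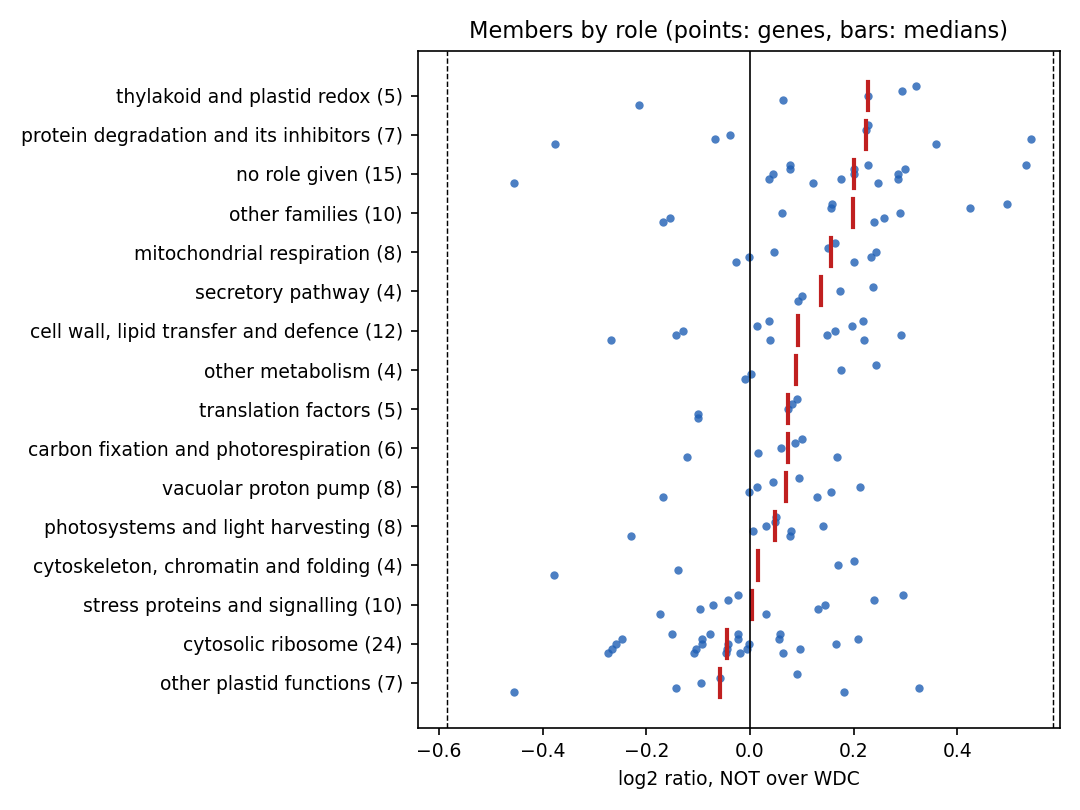
Log2 ratio of NOT over WDC (horizontal) for the 137 members by role class, 1 point per gene, with the number of genes in brackets and a red bar at each class median. Dashed lines mark 1.5-fold; the 24 ribosomal genes have a median of -0.04 and the 8 photosystem genes 0.05, and the 7 genes for protein degradation and its inhibitors span -0.38 to 0.54.

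AT4G34670, a small-subunit protein, gave 2137.3 on NOT and 2280.2 on WDC (-0.09). AT2G27720, an acidic protein of the stalk that recruits translation factors, gave 1720.1 and 1748.9 (-0.02). Its neighbour on the chromosome, AT2G27710, encodes another stalk protein and gave 1030.9 and 1062.2 (-0.04). In the large subunit, AT4G16720 gave 1260.2 and 1302.0 (-0.05) and AT4G27090 gave 1093.0 and 1153.1 (-0.08). These 5 genes had slightly higher signals on WDC. AT2G36160, of the small subunit, stood at 1305.2 and 1253.1 (0.06), with the higher signal on NOT.

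The widest ratios of the class lay in the small subunit, from AT2G41840 at 804.6 and 972.9 (-0.27) to AT2G31610 at 880.2 and 761.7 (0.21). Small-subunit genes numbered 10, of which 4 were higher on NOT, and large-subunit genes numbered 12, of which 2 were. The large-subunit gene AT1G70600 gave 830.3 and 985.0 (-0.25) and AT4G36130 gave 747.6 and 893.9 (-0.26). Ribosomal proteins are encoded by small families of similar genes in Arabidopsis, and the signal of a probe set may include such copies. Only 3 of the 24 were read on probe sets counted as marked for shared sequence, AT4G34670 (suffix i), AT1G04480 (f) and AT2G34480 (s).

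Translation factors, 5 genes, all lay within 1.1-fold, from -0.10 to 0.09. EIF4A-2, an RNA helicase that unwinds the start of the messenger RNA, gave 865.6 on NOT and 927.7 on WDC (-0.10). AT4G27130, an initiation factor of the SUI1 type, gave 807.2 and 767.0 (0.07), and the initiation factor AT2G04520 gave 621.0 and 666.1 (-0.10). ALATS, which charges transfer RNA with alanine, gave 544.6 and 511.7 (0.09). The elongation factor AT1G09640 gave 531.6 and 502.9 (0.08). Ribosomal proteins and translation factors together made 29 genes, all within 25% and 22 within 1.1-fold.

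Mitochondrial respiration was represented by 8 genes, 6 of them higher on NOT, with a median of 0.16. The count was 8 with median scaling and with the spiked-in controls, 6 after quantile normalization and 5 after loess, and the median ran from 0.10 after loess to 0.30 with the spiked-in controls. The class median was 0.09 above that of the other members as deposited, 0.09 above it after quantile normalization and 0.10 after loess. Median and spiked-in scaling leave this difference unchanged by construction. CYTC-1, cytochrome c, which carries electrons between complexes III and IV, had almost equal signals of 1327.8 on NOT and 1329.3 on WDC (-0.00). The complex I subunit AT5G11770 gave 978.3 and 826.4 (0.24), the highest ratio of the 8. AT4G37830, a subunit of cytochrome c oxidase, gave 864.0 and 778.8 (0.15). AT4G22310, of the mitochondrial pyruvate carrier family, gave 835.0 and 710.0 (0.23). MAB1, a subunit of pyruvate dehydrogenase, which feeds carbon into the citrate cycle, gave 646.4 and 659.0 (-0.03). The remaining 3, subunits of complexes I and III, lay between 0.05 and 0.20.

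The vacuolar proton pump, a rotary ATPase, had 8 genes with a median of 0.07 and a range of -0.17 to 0.21. The median was 0.01 after loess and 0.21 with the spiked-in controls. Of these, 5 encode proteolipids, the small proteins of the ring that turns in the membrane. AVA-P2 gave 1459.3 on NOT and 1366.6 on WDC (0.09), and VHA-C3 gave 1378.2 and 1236.9 (0.16). AVA-P1 gave 787.9 and 884.6 (-0.17), so the proteolipid genes did not share one direction. Proteolipid genes are closely alike in sequence, so their signals may mix. Of the 5, 3 were read on probe sets counted as marked for shared sequence. The suffix was s for AVA-P2 and VHA-C3 and i for AT2G16510. AT4G26710, a small membrane subunit, stood at 889.9 and 768.3 (0.21), and VHA-A3, the large membrane subunit, at 533.8 and 487.8 (0.13).

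The secretory pathway had 4 members, all higher on NOT as deposited and under each of the 4 other scalings. AT4G24920, a subunit of the translocon through which new proteins enter the endoplasmic reticulum, gave 1967.2 on NOT and 1669.8 on WDC (0.24). AT2G34250, a subunit of the translocon channel, gave 842.6 and 747.3 (0.17). AT2G21160, a translocon-associated protein, had 965.7 and 905.6 (0.09). The endomembrane protein AT2G01970 had 783.9 and 731.6 (0.10). With 4 genes the shared direction is a description only.

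Genes for protein degradation and its inhibitors had a wider standard deviation of log2 ratios, 0.31, than any other class, with 7 members from -0.38 to 0.54 and 4 within 25%. AT2G38870, a serine protease inhibitor, had 2589.0 on NOT and 1779.3 on WDC, a log2 ratio of 0.54, the highest among the members. CYS1, a cystatin that inhibits papain-type proteases, had 458.8 and 595.1 (-0.38). Both encode inhibitors, yet their ratios lay at opposite ends of the class. Among the proteases, AT4G16190, of the papain type, gave 1657.4 and 1420.2 (0.22). APA1, an aspartic protease, gave 1261.9 and 1078.0 (0.23). GAMMA-VPE, a processing enzyme of the vacuole, gave 1201.0 and 936.6. SCPL49, a serine carboxypeptidase, gave 638.0 and 655.0 (-0.04), and was close to level.

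Cell wall, lipid transfer and defence proteins made up 12 members, all within 25%, with a median of 0.09 that ran from 0.04 after loess to 0.24 with the spiked-in controls. ECS1, a cell wall protein, ranked first in the list and gave 4248.5 on NOT and 3652.3 on WDC (0.22). AT2G45180, of the lipid transfer protein family, gave 1891.5 and 1843.4 (0.04), and AT1G23130, of the Bet v 1 family, gave 1448.5 and 1435.3 (0.01). PRXR1, a class III peroxidase, had 1429.9 and 1579.4 (-0.14). AT5G62350, of the family that inhibits invertases and pectin methylesterases, had 1349.2 and 1475.0 (-0.13). The defensin genes LCR69 and LCR68, which lie with 2 genes between them, had different ratios. LCR69 gave 1285.4 and 1548.2 (-0.27), whereas LCR68 gave 673.0 and 655.4 (0.04).

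Stress proteins and signalling had 10 members, 5 higher on each array, with log2 ratios from -0.17 to 0.30 and a median of 0.00. With median scaling or the spiked-in controls 9 of the 10 were higher on NOT, and 4 were after quantile normalization or loess. The dehydrin AT1G54410, a family that protects cells on drying, gave 2213.6 on NOT and 2168.0 on WDC (0.03). Of the calmodulin-like proteins, which bind calcium, AT2G41090 gave 1377.7 and 1246.6 (0.14) and AT2G41410 gave 1185.3 and 1204.0 (-0.02). RD2, responsive to desiccation, gave 1085.3 and 1117.8 (-0.04). AT2G23120, of the late embryogenesis abundant family, gave 1079.6 and 1218.4 (-0.17). None of the 10 was past 25%.

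The rest of the named roles were scattered. SAMDC, of polyamine synthesis, gave 1560.9 on NOT and 1319.3 on WDC (0.24), and AIM1, of fatty acid beta-oxidation, gave 1264.1 and 1119.0 (0.18). The pyruvate kinase AT2G36580, of glycolysis, had level signals of 596.4 and 595.7 (0.00). AT2G21130, a cyclophilin that helps proteins fold, had 558.0 and 725.4 (-0.38), and TUB9, a beta-tubulin, had 543.4 and 598.5 (-0.14). WLIM2b, which bundles actin filaments, had 617.6 and 549.4 (0.17), and the linker histone AT2G30620 had 621.2 and 540.5 (0.20).

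Among the 10 genes of other families, 8 were higher on NOT, as deposited and under each of the 4 other scalings. The median was 0.20, with 0.15 after loess and 0.34 with the spiked-in controls. CCL gave 2356.8 on NOT and 1927.5 on WDC (0.29). AT3G48140, of the B12D family, gave 1993.8 and 1787.5 (0.16), and AT1G09310, of a family of unknown function, gave 1771.1 and 1990.4 (-0.17). YLS5, of the DJ-1 family, had 850.1 and 602.9 (0.50), and AT2G16660, of the major facilitator family of membrane carriers, had 715.1 and 533.0 (0.42). These last were among the 6 members with the highest ratios.

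Of the 15 genes without a role, 14 were higher on NOT and the median was 0.20, where 47.7% of all named genes above the floor were higher on NOT. The count was 14 with median scaling and with the spiked-in controls, 11 after quantile normalization and 10 after loess, with medians of 0.31, 0.34, 0.17 and 0.14. AT1G07590 ranked second and gave 3509.6 on NOT and 3328.9 on WDC (0.08). Its probe set is one of those whose suffix marks sequence shared between genes. In the RefSeq annotation its span holds the whole of MT1A, which encodes a metallothionein, a small metal-binding protein. Strands were not compared and the probes were not examined, so the probe set may read either gene. Overlap with another protein-coding gene, on either strand, was recorded for 52 of the 137 members, and 4 of them hold a whole gene. The share over all named genes was not counted, so the overlap is not read as a trait of the members. AT2G25510 gave 2666.3 and 2527.7 (0.08) and AT1G13930 gave 2017.4 and 1956.6 (0.04). At the edges were AT4G34630, with 829.4 and 573.8 (0.53), and AT2G18690, with 525.8 and 720.4 (-0.45).

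The share of genes with near-equal signals was higher toward the top of the ranking, over bins that span all 1937 named genes above the floor. The ranking uses the same signals as the ratio, so these shares are a description. Within 1.1-fold were 52% of ranks 1 to 50, 44% of ranks 51 to 100 and 40% of ranks 101 to 150, against 27.1% of ranks 1001 to 1937. Within 25% the shares were 94%, 92% and 76% in the top 3 bins, 76.7% in ranks 151 to 300 and 55.5% in the last bin. Thus the third bin of the list was level with the genes just below it. At 1.5-fold the top 2 bins held 98% and 96%, and the bins from rank 101 to rank 1000 lay between 87.3% and 89.3%. The median distance from a ratio of 1 was 0.11 in the first bin and 0.28 in the last. Probe noise and spread between plants cannot be told apart with 1 array per group.

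**Figure D3:**
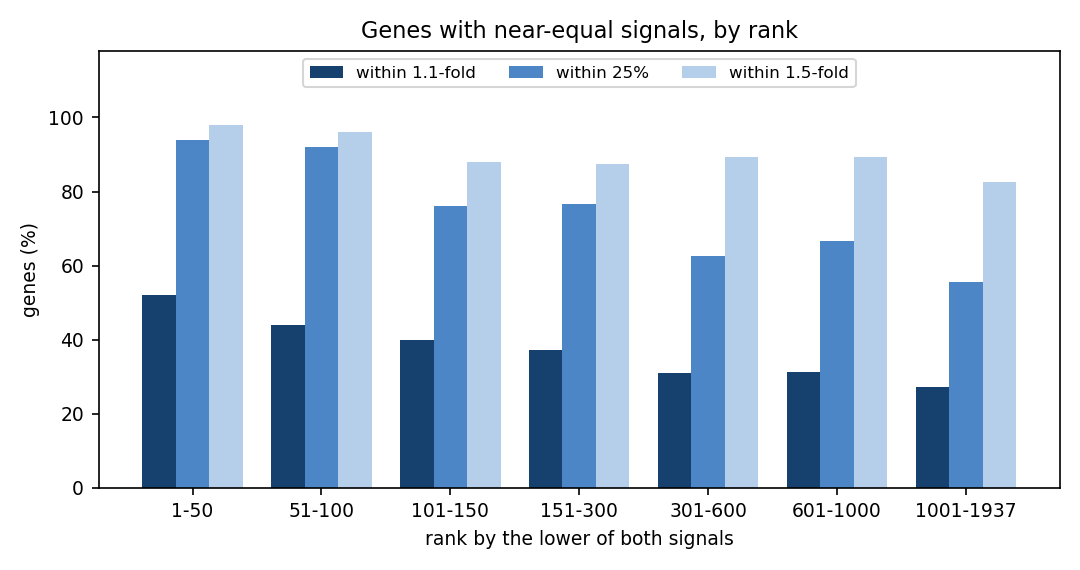
Percentage of named genes (vertical) whose signals on both arrays were within 1.1-fold, 25% and 1.5-fold, in 7 bins of rank by the lower signal (horizontal). The share within 25% is 94% in ranks 1 to 50 and 55.5% in ranks 1001 to 1937.

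Past the 1.5-fold limit were 9 of the 150 genes, 7 higher on NOT and 2 higher on WDC, where 4.7% and 9.09% of all named genes above the floor were. The nearest to the limit on the outside was AT1G49500, with 698.1 on NOT and 455.6 on WDC (0.62). It was followed by AT4G36500 with 484.3 and 772.0 (-0.67) and by AT4G25670 with 604.1 and 973.7 (-0.69). Just inside lay AT2G38870, AT4G34630 and YLS5, given above. Of the other genes past the limit, BGLU25, a beta-glucosidase by its symbol, had 803.7 and 477.2 (0.75), AT2G37130 had 886.6 and 517.4 (0.78) and AT2G43620 had 2337.8 and 1310.8 (0.83). Past 2-fold were AT1G76960 with 1718.4 and 786.7 (1.13), AT5G64120 with 1627.1 and 727.2 (1.16) and GSTF3, a glutathione transferase, with 1041.0 and 450.1 (1.21). At the lower end of the ranking, the first genes left out were AT3G15356, with 524.6 and 446.0, and AT4G22470, with 474.2 and 441.5.

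**Figure D4:**
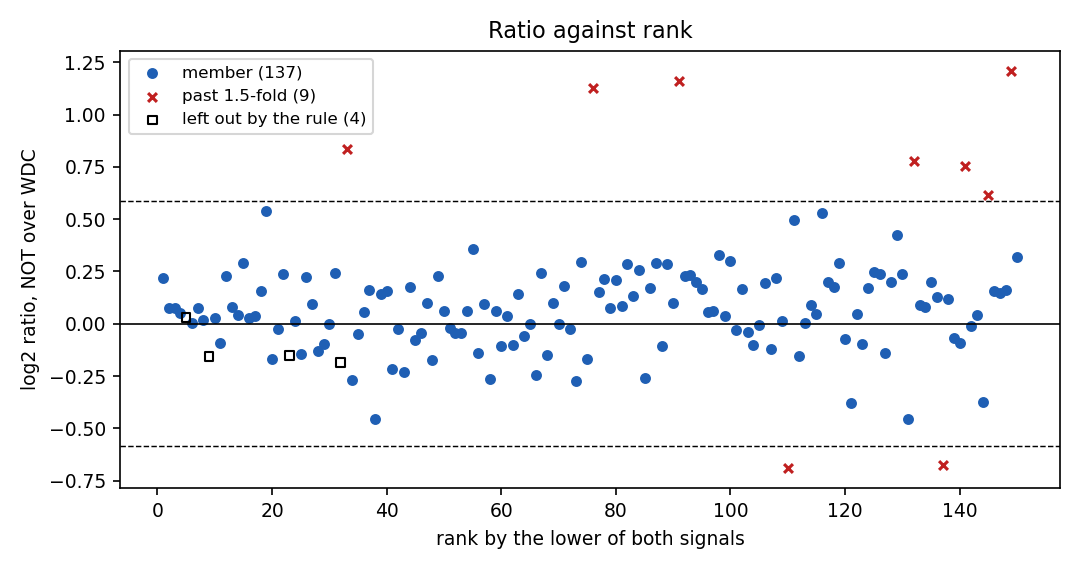
Log2 ratio of NOT over WDC (vertical) against rank by the lower signal (horizontal) for the 150 top-ranked genes, 1 point per gene. Dashed lines mark 1.5-fold; of the 9 genes past them (crosses), 3 rank in the first 100 and 6 in the last 50, and squares are the 4 genes left out.

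Further probe sets of the same genes were not used by the selection and give a limited check on probe noise within the same arrays. Many of them, such as that of PSBW, are numbered next to the best set of the gene. Whether such sets share probes was not examined, so their closeness may understate probe noise. There were 22 further probe sets, for 19 of the members, and 21 were within 1.5-fold. Their log2 ratios differed from those of the best probe set by a median of 0.09, and 18 of the 22 differences were under 0.2. The sign was that of the best set in 17 of the 22. A further set with the other sign was found for AT3G58610, AT1G79010, ALATS, PSAE-1 and AT1G04480. In the whole table, probe sets of the same gene varied with a standard deviation of 0.20, over 93 genes.

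For PSBW the further probe set gave 2249.7 on NOT and 2124.7 on WDC, the same log2 ratio of 0.08 as the best one. PSAE-1 had further sets at 1571.7 and 1546.7 (0.02) and at 454.5 and 479.7 (-0.08), all near level. For YLS5 the further set gave 286.7 and 132.8, a log2 ratio of 1.11 beside 0.50, and was the only one past 1.5-fold. The best set of YLS5 is marked for shared sequence and the further one is not. AT3G58610, a ketol-acid reductoisomerase of branched-chain amino acid synthesis, had 920.8 and 812.4 (0.18) on one set and 429.8 and 482.3 (-0.17) on the other, so its direction was not settled. The further set of LHB1B2 was dim, at 98.6 and 79.8 (0.31).

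**Figure D5:**
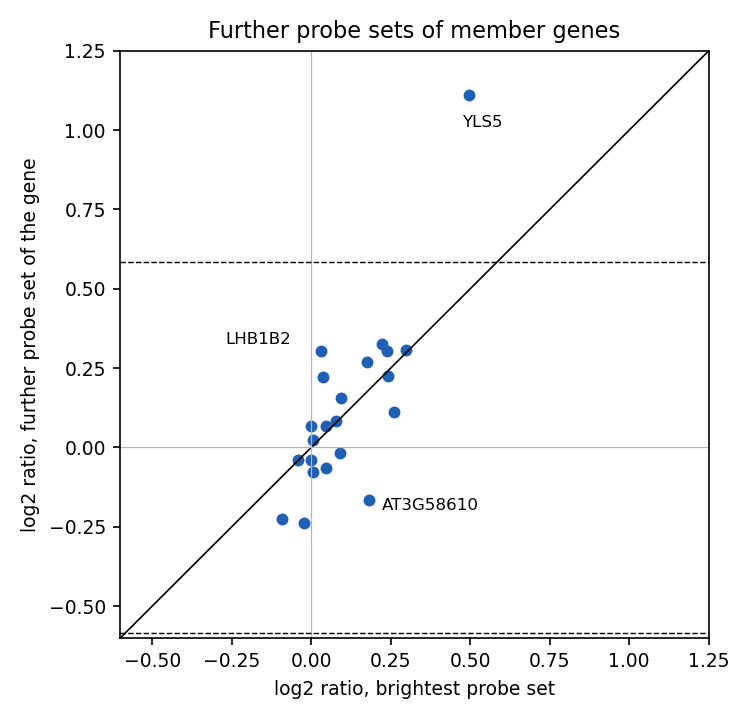
Log2 ratio of NOT over WDC on each of 22 further probe sets (vertical) against that on the best probe set of the same gene (horizontal), for 19 members. The solid line marks equal ratios and the dashed lines 1.5-fold; YLS5, at 0.50 and 1.11, is the only point past the limit.

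The arrays carry controls of their own, whose ratios are given on the deposited scale. The probe set at the 3' end of the actin control gave 1779.2 on NOT and 1848.2 on WDC (-0.05). The glyceraldehyde-3-phosphate dehydrogenase (GAPDH) control gave 1069.0 and 1557.3 (-0.54) at its 3' end, 2090.5 and 2675.0 (-0.36) in the middle and 862.3 and 1311.4 (-0.60) at its 5' end. All 3 GAPDH probe sets were brighter on WDC. The ubiquitin control disagreed with itself, from -0.20 at its 5' end to 0.57 in the middle. The 9 probe sets for spiked-in bacterial transcripts had a median of -0.14, from -0.28 to -0.03.

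Short pathway lists, written by locus, give the other genes of some pathways. They are incomplete, so their counts do not measure how much of a pathway the array names: the ribosome list caught 8 of the 24 ribosomal members. Of 47 listed genes for light harvesting and the photosystems, 8 were named on the array here, all 8 were above the floor and within 1.5-fold, and 7 were members. The other, LHCB4.3, had 398.5 on NOT and 344.8 on WDC (0.21), too low for the ranking. The list for electron transport and the plastid ATP synthase held 16 genes, of which 2 were named, both of them members. Of 26 Calvin cycle genes 4 were named and 3 were members. The named one outside the members, SBPASE, had 304.1 on NOT and 374.6 on WDC (-0.30). Of 19 photorespiration genes 2 were named and both were members. Among 21 genes of chlorophyll synthesis 4 were named and 1 was a member, and of 62 cytosolic ribosomal genes 12 were named and 8 were members. The 11 of these above the floor had a median of -0.15 and were all within 1.5-fold. Translation factors on the list numbered 25, with 4 named and 3 members. For redox and metal binding, 2 of 23 listed genes were named and 0 were members. A further 5 lists held 0 named genes, although related genes are among the members, such as those of the vacuolar proton pump, TUB9 and the cyclophilin AT2G21130.

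Of 7 listed mesophyll markers, 2 were named, RCA and LHB1B2, and both were members. Membership follows from the signals by which genes were selected, so this is no check of the tissue. The marker lists for guard cells, epidermis, vasculature, root, flower and pollen, seed and dividing cells had 0 named genes, so the share of other cell types, or the presence of seedling tissue other than leaves, could not be assessed. In bulk leaf RNA, fewer cells of a type and less RNA per cell cannot be told apart.

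By chromosome, 35 members lay on chromosome 1, 47 on 2, 10 on 3, 36 on 4 and 9 on 5. The 3602 named genes were unevenly spread too. Chromosome 1 held 25.5% of members and 22.0% of named genes, chromosome 2 34.3% and 37.1%, and chromosome 3 7.3% and 4.8%. Chromosome 4 held 26.3% of members and 31.9% of named genes, and chromosome 5 6.6% and 4.2%. Adjacent members were few. The stalk protein genes AT2G27710 and AT2G27720 form one such pair, with nearly equal ratios of -0.04 and -0.02. YLS5 and AT2G38870 form the other, with 0.50 and 0.54, both among the 3 highest ratios of the members.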

How the data were processed

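Each deposited table gives a linear-scale intensity for every probe set of its array. The authors had scaled both arrays alike, as judged from the values, and the summarising software is not given in the sources used. Of 8297 probe sets, 50 controls were left out, and 3794 named exactly 1 gene in the platform annotation. For 3784 of these the locus was found in RefSeq's gene table (assembly TAIR10.1), from which only names, gene order and overlap were taken. As floor served the 40th percentile of all non-control signals, 12.5. No offset was added. The best probe set of a gene is the one with the highest lower signal. Probe sets with the suffix s, g, i, f or r were all counted as marked for shared sequence and were kept. Among the members, 28, 4, 3, 2 and 1 carried these suffixes in that order. The suffixes i and r need not mean shared sequence.

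Members, lists and roles were chosen with earlier results of these data known, and roles were written after the values were seen. Named genes were the 25 highest-ranked members, the 6 highest and 6 lowest ratios, up to 5 of each class, those at the limits or past them, those with a discordant further probe set, and members on a pathway list. Others, such as gene pairs, subunits of one complex and list genes outside the members, were named after their values were seen. Alternatives were 4 scalings (loess with a span of 0.4), other list sizes, fold limits, floors, rankings and probe-set rules. Sequence features of promoters and proteins were not analysed here. Tools were numpy 2.4.6, scipy 1.17.1, pandas 2.3.3, matplotlib 3.10.9 and statsmodels 0.14.6 under Python 3.11.15. The scripts were tested on simulated data. The number of arrays, 1 per group, limits the precision.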

Additional observations from a re-analysis of the deposited data

How the results depend on the processing

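The count of genes past 1.5-fold in the list, 9, was 14 when genes were ranked by the mean log2 signal, a ranking that admits genes bright on one array only. It was 3 in a list of 100 and 16 in a list of 200. With a limit of 25% it was 19, and with a limit of 2-fold it was 3. By construction a longer list cannot lower this count, and a wider limit cannot raise it. The count was 10 with median scaling, with scaling to the spiked-in controls and with the mean over probe sets. After quantile normalization it was 9 and after loess 8. The number of steady genes, 137, stayed between 131 and 139 for lists of 150 at the 1.5-fold limit. Of the 137 genes, 130 were shared with the list under median scaling, 137 under quantile normalization, 136 under loess and 129 under spiked-in scaling, but fewer when probe sets marked for shared sequence were left out, where 36 genes were lost and 38 came in. AT2G38870, AT4G34630 and YLS5 passed the 1.5-fold limit with median and spiked-in scaling. YLS5 also passed it with the mean over its probe sets (0.63) and without shared probe sets (1.11). AT4G25670 and AT4G36500 came inside it with median and spiked-in scaling, and AT1G49500 did with loess (0.56). Of 861 recomputed ratios of single genes, 2 moved by more than 0.20, the standard deviation between probe sets of a gene. They were those of YLS5 and AT3G58610 without shared probe sets. Many of the others had no room to move that far. Median and spiked-in scaling add 0.11 and 0.14 to every ratio, and the probe-set rules alter only genes with further or marked probe sets. The low count is therefore partly fixed by the settings. The directions by scaling in the report, and the class medians relative to the other members, were alternatives chosen after seeing the data. No paired analysis was possible because each group has 1 array, and for the same reason no replicate could be left out. Without detection calls, whether a dim probe set was above background could not be told, but every member lay far above the floor.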
